A study of Mus musculus with 9 samples.

Results

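Values are given here for 10 of the 19769 genes in the RNA-seq table: 4 NF-kB transcription factor genes (*Nfkb1*, *Nfkb2*, *Rela*, *Relb*), 3 genes that restrain or modulate NF-kB (*Nfkbia*, *Nfkbiz*, *Tnfaip3*) and 3 Toll-like receptor genes (*Tlr2*, *Tlr3*, *Tlr4*). They were taken by gene name, and all 10 had values. RNA had been sequenced from primary mouse embryonic fibroblasts (MEFs) of Myc-Egfp+/+ mice, in which both copies of *Myc* carry EGFP, so that GFP fluorescence reports MYC protein. All cells had been given the proteasome inhibitor MG-132 (20 µM, 6 h), had been sorted into a pool with low GFP (low-MYC) and one with high GFP (high-MYC), and had then been kept in culture overnight. Each pool gave 2 libraries that the study calls technical replicates, so each p-value below compares these libraries and not independent cultures or embryos. No library without MG-132 was among the 4.

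NF-kB factors are dimers of Rel-family proteins. In resting cells, inhibitor proteins such as IκBα, the product of *Nfkbia*, hold them in the cytoplasm. Toll-like receptors, which recognize microbial molecules, and receptors for TNF and IL-1 activate the IKK kinase complex, IκBα is then degraded by the proteasome, and the freed dimers enter the nucleus. Among their targets are *Nfkbia* and *Tnfaip3* themselves, which close a negative feedback loop, and cytokine and adhesion genes. Fibroblasts respond to these signals, and macrophages use the same pathway with higher levels of many Toll-like receptors.

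Several of the 10 genes are themselves known targets of NF-kB, and the stretches of their upstream DNA that hold the NF-kB consensus are shown for this reason. Promoter windows from RefSeq (GRCm38.p6, the mm10 build of the files) were matched by symbol for 6 genes, *Nfkb2*, *Rela*, *Nfkbia*, *Tnfaip3*, *Tlr2* and *Tlr3*, with 9 start sites in all; *Nfkb1*, *Relb*, *Nfkbiz* and *Tlr4* were not matched. This consensus, a motif of 10 bases searched on both strands with overlapping matches merged, occurred in the 250 bases before 7 of the 9 start sites and in 5 of the 6 genes. It occurred in 3.90% of all 32851 promoters of this length and in 4.46% of all genes of that table. The window of *Rela* held no match. Capitals mark the consensus, and sequences are written 5′ to 3′ on the strand of the gene.
Nfkbia, 250 bases before the start site, chr12:55492648-55492897, minus strand: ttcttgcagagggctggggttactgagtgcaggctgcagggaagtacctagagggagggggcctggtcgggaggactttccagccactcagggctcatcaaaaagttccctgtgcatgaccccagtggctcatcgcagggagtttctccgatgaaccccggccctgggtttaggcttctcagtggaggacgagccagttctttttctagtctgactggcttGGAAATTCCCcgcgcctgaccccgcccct
Tnfaip3, 137 bases before the start site, chr10:19015411-19015547, minus strand: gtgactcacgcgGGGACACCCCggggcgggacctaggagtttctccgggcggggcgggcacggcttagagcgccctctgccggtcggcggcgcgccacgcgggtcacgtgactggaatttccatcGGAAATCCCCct
Nfkb2, match nearest its first RefSeq start site, chr19:46304707-46304736, plus strand: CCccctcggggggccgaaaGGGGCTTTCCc
Nfkb2, the match upstream of it, chr19:46304688-46304717, plus strand: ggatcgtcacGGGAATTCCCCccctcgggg
Tlr2, 2 overlapping matches, chr3:83841762-83841791, minus strand: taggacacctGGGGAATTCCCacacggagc
Tlr3, chr8:45410572-45410601, minus strand: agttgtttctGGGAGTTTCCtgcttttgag

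The match of *Nfkbia* began 29 bases before the start site. *Tnfaip3*, shown up to the nearest annotated exon of another transcript, had one that began 125 bases before its start site and one at 12 bases. The matches shown for *Nfkb2* began 39 and 11 bases before the RefSeq start, a stretch that the GENCODE M21 annotation counts as exon of a transcript that starts further upstream. Those of *Tlr2* and *Tlr3* began 173 and 211 bases before the RefSeq start. GENCODE M21 places the start of *Tlr2* further upstream, at chr3:83841767, within the stretch shown and just downstream of its matches. The match of *Tlr3* lies downstream of another start that GENCODE M21 places at chr8:45410619. A match is a description of the letters and not evidence that a factor was bound in these cells.

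Values were read on 2 scales. The deposited value is FPK, the reads of a transcript per kilobase of its length, divided by a score from ERCC spike-in RNA that had been added in proportion to cell number; it is called the level per cell below. The share is the same value as parts per 1000000 of the sum of its column (ppm), which takes out the difference in total RNA between libraries and, being per length, can be compared between genes. The column sums were 46321 and 48291 in the low-MYC and 102853 and 109090 in the high-MYC libraries. Estimated from the steps between the lowest values, a single read was worth 1.002, 2.245 and 2.538 times as much in low-MYC replicate 2 and in the high-MYC replicates as in low-MYC replicate 1; the part of the spike-in score in the per-cell differences was not tested. Groups were compared with limma over the 11870 genes whose mean was at least 0.1, on log2(level + 0.1) and on log2(share + 1), and a gene was called at an adjusted p under 0.01; folds on these log scales understate those of low genes. Over all tested genes the log2 difference per cell had a median of 1.03, and its 5th and 95th percentiles were 0.59 and 1.35. On the share scale the median was 0.0094 and these percentiles were -0.23 and 0.36. These are bulk samples, in which fewer cells of a type and less RNA per cell cannot be told apart.

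Per cell, all 9 members that could be tested were called higher in high-MYC MEFs, beside 97.1% of all tested genes; the 10th, *Tlr4*, had a mean under 0.1. Of the 9, 4 (*Rela*, *Nfkbia*, *Nfkbiz*, *Tlr2*) were also at least 2-fold higher on the log2 scale with its pseudocount, beside 55.1% of all tested genes. The median log2 difference of the 9 was 0.98, near that of all genes. As a share of the total, 1 of the 9 was called higher (*Nfkbiz*; background 1.78%) and 1 lower (*Tnfaip3*; background 0.531%), and the median of the 9 was 0.08. Shares of the groups did not overlap for 8 of the 9, where 62.3% of all tested genes had shares that did not overlap. Both called genes came from the 3 listed as restraining or modulating NF-kB. All 10 genes were chosen for their part in this pathway, and a difference between the groups of genes was not tested.

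**Figure D1:**
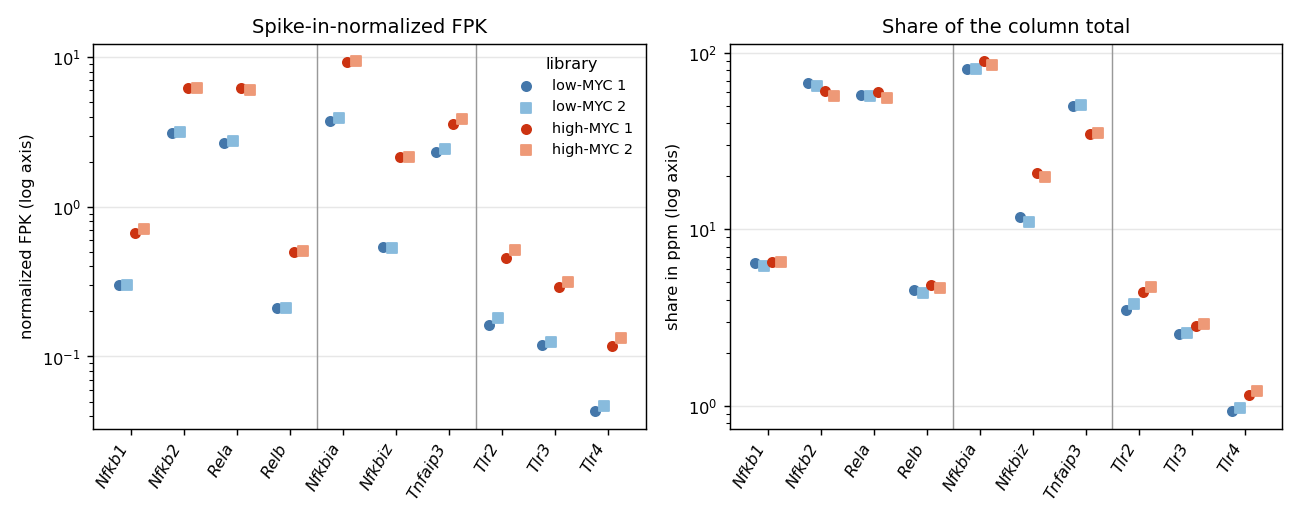
Spike-in-normalized FPK (left) and share of the column total in ppm (right) of the 10 genes in the 4 libraries, both on log axes. Each point is 1 library, and grey lines separate factors, genes that restrain or modulate NF-kB, and Toll-like receptors. On the left both high-MYC libraries lay above both low-MYC libraries for every gene; on the right the groups came close together except for *Nfkbiz*, higher in high-MYC, and *Tnfaip3*, lower.

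*Nfkbiz* (chr16:55811375-55838899 of mm10, minus strand) encodes IκBζ, an inducible nuclear protein that helps NF-kB activate a set of secondary targets such as *Il6*. Its level per cell was 0.543 and 0.531 in the low-MYC libraries and 2.15 and 2.17 in the high-MYC libraries. The high-MYC values were 4.02 times the low-MYC values by the ratio of means, and the groups were far apart. On the log2 scale the difference was 1.83 (standard error 0.0456, adjusted p = 1.04e-05, limma), above that of 99.2% of tested genes. Its share was 11.7 and 11.0 ppm in low-MYC and 20.9 and 19.9 ppm in high-MYC cells. The share thus stood 79.4% higher in high-MYC cells, a log2 difference of 0.79 (standard error 0.0467, adjusted p = 0.00515, limma) that exceeded that of 98.7% of tested genes. In the ranking of the 19769 genes by mean share it went from 6020 in low-MYC to 4320 in high-MYC cells.

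*Tnfaip3* (chr10:19000910-19015657, minus strand) encodes A20, a ubiquitin-editing enzyme that shuts off signals to IKK. Per cell it measured 2.33 and 2.46 in low-MYC and 3.59 and 3.87 in high-MYC cells, and the ratio of means was 1.56. The groups did not overlap, yet this was the smallest rise among the members: the log2 difference of 0.62 (standard error 0.0565, adjusted p = 1.11e-04, limma) lay above that of 6.02% of tested genes. The direction depends on the scaling, since with each library set to the same median the difference was -0.52. As a share, *Tnfaip3* fell from 50.4 and 50.8 ppm to 34.9 and 35.5 ppm, a change of -30.5%. The log2 difference of the share was -0.51 (standard error 0.0288, adjusted p = 0.00481, limma), and 0.817% of tested genes had a lower value. Its rank by mean share went from 2093 in low-MYC to 2874 in high-MYC cells.

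Both share calls were lost when any single library was left out. The adjusted p (limma) of *Nfkbiz* was 0.0156 and 0.0198 without low-MYC replicate 1 and 2 and 0.0593 and 0.0514 without high-MYC replicate 1 and 2, and that of *Tnfaip3* was 0.0263, 0.0315, 0.0580 and 0.0495 in the same order; the log2 differences stayed between 0.75 and 0.83 and between -0.52 and -0.50. Without the filter on low values the adjusted p was 0.0185 for *Nfkbiz* and 0.0118 for *Tnfaip3*. Without high-MYC replicate 1 or 2, 0 of the 11870 tested genes were called in share (limma; 2685 and 3223 at an unadjusted p under 0.05), so that the share calls of the pathway and marker genes given further on were lost there too.

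*Nfkbia* (chr12:55489410-55492647, minus strand) encodes IκBα. It was the most abundant of the 10 genes, at 3.76 and 3.91 in low-MYC and 9.24 and 9.38 in high-MYC cells on the per-cell scale. The ratio of means was 2.43, and the log2 difference of 1.26 (standard error 0.0432, adjusted p = 1.04e-05, limma) exceeded that of 89.9% of tested genes. The share was 81.2 and 81.0 ppm in low-MYC and 89.8 and 85.9 ppm in high-MYC cells. The groups did not overlap, but the difference of 8.35% (log2 difference 0.11, standard error 0.0343) was not called (adjusted p = 0.113, limma).

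Ratios between *Nfkbia*, *Nfkbiz* and *Tnfaip3* within a library are free of the spike-in score and of the column total. *Nfkbiz* stood at 0.233 and 0.216 of *Tnfaip3* in the low-MYC libraries and at 0.598 and 0.561 in the high-MYC libraries. *Tnfaip3* stood at 0.621 and 0.628 of *Nfkbia* in low-MYC and at 0.389 and 0.413 in high-MYC cells. These pairs hold the genes called in share, so the gap between the groups follows from that choice and is given as a description. The summed share of the 3 genes was 143 and 143 ppm in low-MYC and 146 and 141 ppm in high-MYC cells, with overlap.

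**Figure D2:**
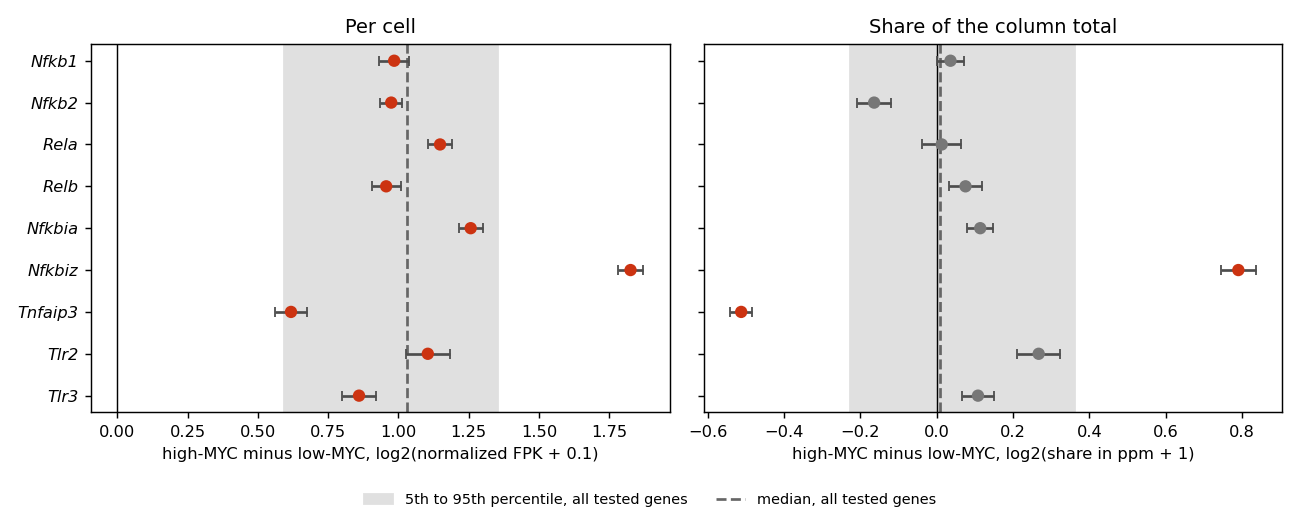
Difference between high-MYC and low-MYC libraries for the 9 tested genes on log2(normalized FPK + 0.1) (left) and log2(share in ppm + 1) (right), with standard errors from limma; red points had an adjusted p under 0.01. The grey band spans the 5th to the 95th percentile of the 11870 tested genes and the dashed line is their median: *Nfkbiz* lay above the band on both scales, and *Tnfaip3* lay near its lower edge per cell and below it as a share.

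The 4 factor genes lay between the 5th and 95th percentiles of all genes on both scales. *Rela* (chr19:5637483-5648130, plus strand) encodes p65, the main activating subunit of the canonical pathway. The level per cell was 2.69 and 2.75 in low-MYC and 6.23 and 6.06 in high-MYC cells, with means in the ratio 2.26 and a log2 difference of 1.15 (standard error 0.0425, adjusted p = 1.04e-05, limma). In share it measured 58.0 and 56.9 ppm in low-MYC and 60.5 and 55.6 ppm in high-MYC cells. *Rela* was the only one of the 10 genes whose shares overlapped between groups, with a log2 difference of 0.01 (standard error 0.0510) whose sign turned under other settings.

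*Nfkb1* (chr3:135584655-135691547, minus strand) encodes p105, the precursor of the p50 subunit that pairs with p65. Levels per cell were 0.2992 and 0.3004 in low-MYC and 0.674 and 0.709 in high-MYC cells, and the ratio of means was 2.31. Shares were 6.46 and 6.22 ppm in low-MYC and 6.55 and 6.497 ppm in high-MYC cells. The shares differed by 2.91% between groups, and the log2 difference of 0.04 (standard error 0.0362) was not called (adjusted p = 0.547, limma).

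*Nfkb2* (chr19:46304320-46312385, plus strand) encodes p100, which restrains dimers and is processed to p52 in the noncanonical pathway. Its level per cell was 3.13 and 3.15 in low-MYC and 6.28 and 6.26 in high-MYC cells, and the ratio of means was 1.995. Its share was 67.6 and 65.3 ppm in low-MYC and 61.0 and 57.4 ppm in high-MYC cells. The high-MYC shares lay below the low-MYC shares, by 10.9% of the low-MYC mean, and the log2 difference of -0.16 (standard error 0.0439) was not called (adjusted p = 0.0918, limma). Only 8.76% of tested genes had a lower value.

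*Relb* (chr7:19606217-19629438, minus strand) encodes the partner of p52. Per cell it measured 0.210 and 0.212 in low-MYC and 0.4997 and 0.5055 in high-MYC cells, and the ratio of means was 2.39. The share was 4.53 and 4.38 ppm in low-MYC and 4.86 and 4.63 ppm in high-MYC cells. The groups did not overlap, and the log2 difference of 0.08 (standard error 0.0420) was not called (adjusted p = 0.301, limma).

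Over the factors, per-cell log2 differences ranged from 0.96 to 1.15, and all 4 were called higher. On the share scale 0 were called (limma), with 0 higher and 1 lower (*Nfkb2*) at an unadjusted p under 0.05. Their summed share was 137 and 133 ppm in low-MYC and 133 and 124 ppm in high-MYC cells. With each library set to the same median, the per-cell differences became 0.02 for *Nfkb1*, -0.18 for *Nfkb2*, -0.0017 for *Rela* and 0.06 for *Relb*, so that 2 of the 4 turned direction. Within libraries, *Nfkb2* stood at 1.17 and 1.15 times *Rela* in low-MYC and at 1.01 and 1.03 times in high-MYC cells. Some reads could belong to neighbors: *Nfkb1* overlaps *Gm43430* on its own strand, and on the opposite strand *Nfkb2* overlaps *AC114539.1*, a noncoding gene, by 1292 bp and the end of *Psd* by 299 bp. *AC114539.1* was not analysed here. *Gm43430* had at most 0.00896 and *Psd* at most 0.202 in any library.

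The Toll-like receptors were the rarest of the 10 genes. *Tlr2* (chr3:83836272-83841767, minus strand) encodes a surface receptor for bacterial lipoproteins. The level per cell was 0.162 and 0.182 in low-MYC and 0.453 and 0.516 in high-MYC cells. The ratio of 2.82 was the largest among the receptors, with a log2 difference of 1.10 (standard error 0.0788, adjusted p = 3.94e-05, limma). In share it measured 3.49 and 3.77 ppm in low-MYC and 4.403 and 4.73 ppm in high-MYC cells. These shares did not overlap and differed by 25.96%, but the log2 difference of 0.27 (standard error 0.0555) was not called (adjusted p = 0.0582, limma).

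*Tlr3* (chr8:45395665-45411080, minus strand) encodes an endosomal receptor for double-stranded RNA. Levels per cell were 0.119 and 0.125 in low-MYC and 0.291 and 0.315 in high-MYC cells, and the ratio of means was 2.48. Shares were 2.57 and 2.60 ppm in low-MYC and 2.83 and 2.89 ppm in high-MYC cells. The log2 difference of the share, 0.11 (standard error 0.0409), was not called (adjusted p = 0.169, limma). The annotated antisense gene *Gm45542* lies over its first exon, and since the strand used in counting is not given in the sources used here, its reads could not be told apart from those of *Tlr3*.

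*Tlr4* (chr4:66827584-66930284, plus strand) encodes the receptor for bacterial lipopolysaccharide. Its level per cell was 0.0431 and 0.0469 in low-MYC and 0.117 and 0.133 in high-MYC cells, and the ratio of means was 2.78. Its share was 0.931 and 0.971 ppm in low-MYC and 1.14 and 1.22 ppm in high-MYC cells. Without the filter on low values, the per-cell log2 difference was 0.63 (adjusted p = 9.50e-04, limma) and that of the share was 0.16 (adjusted p = 0.114, limma).

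The summed share of the 3 receptors was 6.98 and 7.34 ppm in low-MYC and 8.38 and 8.84 ppm in high-MYC cells. On the share scale 0 of the 2 tested receptors were called (limma), and 1 of them, *Tlr2*, was higher at an unadjusted p under 0.05. The summed share of 16 macrophage markers was 13.9 to 18.5 ppm in low-MYC and 268 to 270 ppm in high-MYC libraries, and its part in the receptor values was not tested. The depth behind these values was low. By the estimated worth of a read, *Tlr2* rested on about 112, 126, 140 and 141 reads in the order of the libraries, with exact 95% Poisson limits of 92.2 to 134.8 in low-MYC replicate 1 and 118.7 to 166.3 in high-MYC replicate 2. *Tlr3* rested on at most 120, 127, 131 and 126 reads. *Tlr4* rested on at most 40, 44, 49 and 49 reads, and its limits overlapped between all libraries (28.6 to 54.5 at the lowest and 36.3 to 64.8 at the highest). The limits cover counting error only: they treat the estimated reads as counts and leave out the error of the estimate.

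The order of the 10 genes by mean share was the same in both groups: *Nfkbia*, *Nfkb2*, *Rela*, *Tnfaip3*, *Nfkbiz*, *Nfkb1*, *Relb*, *Tlr2*, *Tlr3* and *Tlr4*. In low-MYC cells the libraries of neighbors in this order did not overlap. In high-MYC cells *Nfkb2* and *Rela* overlapped (61.0 and 57.4 against 60.5 and 55.6 ppm), as did *Relb* and *Tlr2*. The gap between *Tnfaip3* and *Nfkbiz* narrowed from means of 50.6 and 11.4 ppm to means of 35.2 and 20.4 ppm. Among all 19769 genes, *Nfkbia* had rank 1384 in low-MYC cells against 1301 in high-MYC cells, and *Tlr4* had rank 12491 against 12135.

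The genes whose shares over the 4 libraries ran closest to *Nfkbiz*, by the distance between centered log2 profiles, were *Emilin2* (0.0217), *Smoc2* (0.0392) and *Adamtsl4* (0.0411), which encode proteins of the extracellular matrix or bound to it. *Emilin2* had shares of 3.60 and 3.29 ppm in low-MYC and 6.85 and 6.40 ppm in high-MYC cells. Closest to *Tnfaip3* were *Pvr* (0.0166), *Htr1b* (0.0173) and *Slc1a6* (0.0297), which encode a cell adhesion receptor, a serotonin receptor and a glutamate transporter. *Pvr* had shares of 71.1 and 70.7 ppm in low-MYC and 48.9 and 50.1 ppm in high-MYC cells. With 4 libraries in 2 groups, closeness mostly says that the change in share was of like size.

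Other genes of the pathway were read from lists, described by counts and medians. All tested genes of each list named here were called higher per cell, like 97.1% of all genes, so only shares are given. Among 11 tested further factors and inhibitors, 1 was called higher and 0 lower in share (limma; 1 and 1 at an unadjusted p under 0.05), with a median log2 difference of -0.03. The gene called was *Bcl3*, a nuclear IκB protein like IκBζ: its share was 1.48 and 1.42 ppm in low-MYC and 3.52 and 3.16 ppm in high-MYC cells, a log2 difference of 0.82 (standard error 0.0606, adjusted p = 0.00789, limma). With per-cell levels of 0.0684 and 0.0686 in low-MYC, *Bcl3* passed the filter only through the high-MYC libraries, which favors a call in this direction. *Rnf11*, *Tax1bp1* and *Itch*, which work with A20, had the highest mean shares over the 4 libraries on the list and log2 differences of 0.06, -0.06 and 0.01, and none of them was called.

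Of 21 tested genes of the IKK complex and of the kinases and ubiquitin ligases upstream of it, 0 were called in share (limma), with 1 higher and 2 lower at an unadjusted p under 0.05, and the median was 0.0043. The highest mean shares over the 4 libraries were those of *Sharpin*, *Ube2n* and *Rbck1*, with log2 differences of 0.04, -0.03 and 0.13. Of 11 tested co-receptors and adaptors of the Toll-like receptors, 0 were called (limma), with 4 higher and 2 lower at an unadjusted p under 0.05, and the median was 0.09. *Hsp90b1*, the chaperone of these receptors, *Irak1* and *Myd88*, the shared adaptor, had log2 differences of 0.21, 0.12 and 0.14. *Cd14*, the co-receptor that hands lipopolysaccharide to TLR4, had the largest difference of this list, 1.08, from 6.94 and 8.93 ppm to 18.6 and 17.0 ppm, which was not called (adjusted p = 0.0181, limma); it was singled out after its values were seen.

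Of 5 tested receptors for TNF and IL-1, 1 was called higher in share and the median was 0.23. It was *Tnfrsf1b*, TNF receptor 2, with 1.34 and 1.31 ppm in low-MYC and 3.07 and 2.91 ppm in high-MYC cells (log2 difference 0.78, adjusted p = 0.00550, limma). *Tnfrsf1b* too passed the filter only through the high-MYC libraries, with per-cell levels of 0.0623 and 0.0631 in low-MYC. *Ltbr*, *Tnfrsf1a* and *Il1r1*, with the highest mean shares over the 4 libraries, had log2 differences of -0.03, 0.23 and 0.48.

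Of 15 tested known targets of NF-kB, 7 were called higher in share and 0 lower (limma; 11 and 3 at an unadjusted p under 0.05), with a median of 0.50. They were the chemokine genes *Ccl2* (1.77 on the log2 scale), *Ccl20* (2.08) and *Cxcl1* (1.99), the cytokine gene *Il6* (1.26), the acute-phase gene *Saa3* (2.18) and the adhesion genes *Icam1* (0.92) and *Vcam1* (0.36). The study picked *Ccl2*, *Ccl20*, *Cxcl1*, *Il6* and *Saa3* from these same libraries, so they are not independent evidence of a direction. *Saa3* (0.0212 and 0.0189 per cell in low-MYC), *Ccl20* (0.0725 and 0.0709) and the uncalled *Cxcl2* (0.0463 and 0.0739) passed the filter only through the high-MYC libraries. The filter thus tilts the count and the median of this list towards higher values. The summed share of the 21 targets with values, tested or not, lay lower in high-MYC libraries. It was 4024 to 4059 ppm in low-MYC and 3859 to 3866 ppm in high-MYC libraries. The targets with the highest mean shares over the 4 libraries were not called: *Ptgs2* had a log2 difference of -0.37, *Csf1* of -0.18 and *Ier3* of 0.22. *Cxcl1*, one of the genes picked by the study, had shares of 16.4 and 15.9 ppm in low-MYC and 71.1 and 63.4 ppm in high-MYC cells.

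**Figure D3:**
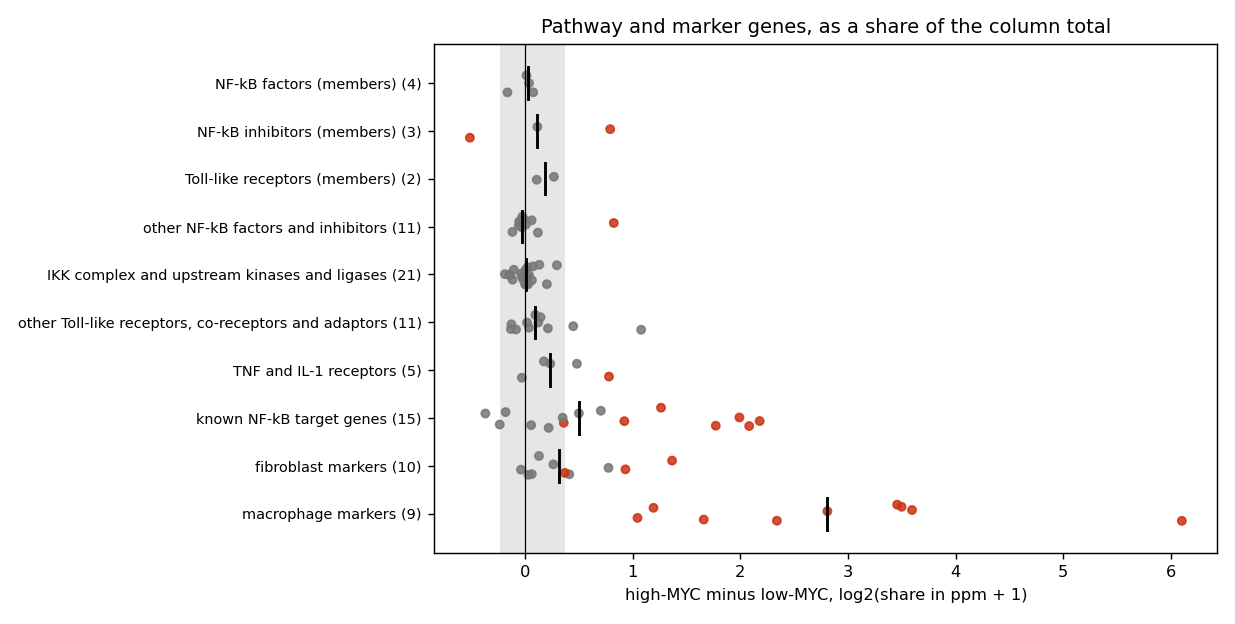
Difference between high-MYC and low-MYC libraries on log2(share in ppm + 1) for the tested genes of each list; each point is 1 gene, red points had an adjusted p under 0.01, black bars are medians, and the number tested stands in brackets. The grey band spans the 5th to the 95th percentile of all tested genes. The lists of factors and of IKK genes stayed near 0, the targets spread from -0.37 to 2.18, and the macrophage markers lay highest. All tested macrophage markers but *Cd68* passed the filter only through the high-MYC libraries.

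Marker genes of cell types were also read as shares. Of 16 macrophage markers, 9 were tested and all 9 were called higher in share, with a median log2 difference of 2.81 and the summed shares given with the receptors. The filter took the mean over the 4 libraries. Of the tested markers, all but *Cd68* (0.549 and 0.661 per cell in low-MYC) passed it only through the high-MYC libraries. The filter thus favors calls in this direction and a high median among the tested markers. The summed shares take in all 16 markers, tested or not. *C1qa*, *Tyrobp* and *Adgre1* were listed at 0 in low-MYC replicate 1. Macrophages express *Tlr2*, *Tlr4*, *Cd14* and *Tnfrsf1b* strongly, and *Tlr13*, a macrophage receptor singled out after its values were seen, had shares of 0.0109 and 0.0209 ppm in low-MYC and 1.80 and 1.95 ppm in high-MYC cells. The part of macrophages in the values of the 10 genes was not tested. Of 10 fibroblast markers, 3 (*Lum*, *Dcn*, *Pdgfra*) were called higher in share and *Col1a1*, *Vim* and *Thy1* were among the most abundant genes of the lists, with at least 897 ppm in every library. Of the endothelial and epithelial markers, 1 and 2 were tested and 0 were called (limma; 1 higher and 2 lower at an unadjusted p under 0.05); the 8 lymphocyte markers were not analysed here.

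Chromatin at the start sites was read from TACh-seq, in which a nuclease cuts accessible DNA. The table lists the positions of 4881417 reads from MEFs. All 4 TACh-seq samples, 2 of wild-type cells and 2 of cells that lacked FUBP1 and were depleted of FUBP2, point to this table in their labels, while its own name points to the first wild-type replicate. No column assigns a read to a sample, so which samples the reads come from is not known, and they are described without a comparison. None of the 4 samples is labelled as a low-MYC or high-MYC pool. All 10 genes had at least 20 reads within 500 bp of an annotated start of a coding transcript, beside 87.6% of 10217 tested genes. The highest number was 307 at *Nfkb2* and the lowest 46 at *Nfkb1*, where the median over tested genes was 116 and the middle 50% of genes lay between 72 and 178.

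*Nfkbiz* had 234 reads at the internal start chr16:55822138 and 106 and 108 at the pair of starts near 55838854 and 55838899, at the upstream end of the gene. *Tnfaip3* had 162 reads at 19015410, the start behind the sequence shown above, and 4 at the start at 19011963. *Rela* had 152 reads, *Tlr4* 120, *Relb* 106 and *Nfkbia* 103. *Tlr3* had 68 and *Tlr2* 55, both under the lower quartile of tested genes. *Tlr4*, the rarest transcript of the 10, thus had more reads at its start than *Nfkbia*, the most abundant. For *Relb* most reads lay downstream of the start, with 57 in the 50 bp that begin 700 bp into the gene.

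**Figure D4:**
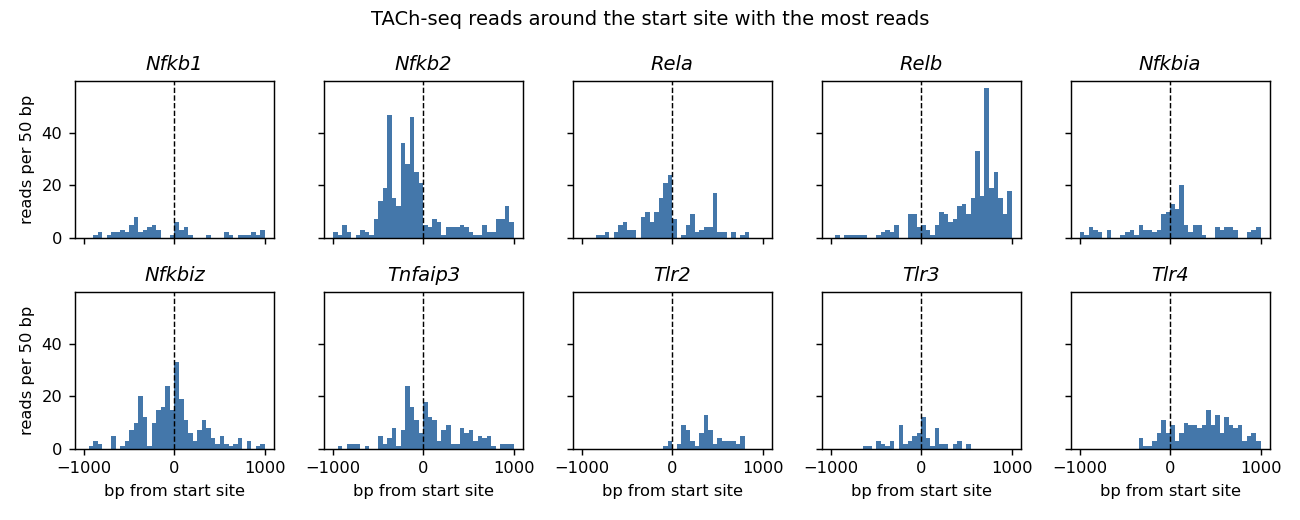
TACh-seq reads per 50 bp within 1000 bp on either side of the start site with the most reads, for each of the 10 genes on a common axis; the dashed line is the start site, and all reads of the table are counted, whichever samples they come from. *Nfkb2* had its highest bar upstream of the start (47 reads) and *Relb* downstream (57 reads), and *Nfkb1*, *Tlr2* and *Tlr3* had few reads.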

How the data were processed

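RNA-seq (4 libraries) and TACh-seq (1 table that the labels of 4 samples name, with no sample given per read) of MEFs were used. The RNA-seq reads were trimmed by the authors at 3′ bases of quality under 20, aligned to the mm10 transcriptome (TopHat), quantified by the E/M method (Partek) and divided by transcript length. A score from ERCC spike-in transcripts, their geometric mean, then served as divisor. The deposited signal values are these normalized FPK; versions are not given in the sources used here. The deposited TACh-seq table, aligned with Bowtie2, gives read positions and a mapping score, which was not used. FUBP1 ChIP-seq peaks, on chromosome 15 only, were not used, as none of the 10 genes lies there.

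Normalized FPK and shares were compared with limma 3.58.1 (lmFit, eBayes with trend, Benjamini-Hochberg adjustment over all tested genes) in R 4.3.3, with pseudocounts of 0.1 and 1; the procedure was tested on simulated data. Genes were placed with GENCODE M21, TACh-seq reads by their midpoints at starts of its basic set. Read counts were not used here, so depth was estimated from the lowest values; 42.1% to 45.4% of low values lay within 0.1 of a whole read, too few to recover counts. Named are the 10 genes, list members called in share or among the 3 highest of a list by mean share over the 4 libraries, and the 3 nearest genes to each called member. Members and lists were chosen with earlier results of these data known. Alternatives changed the pseudocount, the filter, the trend, the scaling, the block, the threshold and the libraries. Python 3.11.15, pandas 2.3.3 and matplotlib 3.10.9 were used.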

Additional observations from a re-analysis of the deposited data

How the results depend on the processing

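On the per-cell scale, the number of the 10 genes called was 9 under most alternatives, 10 with no filter on low values, and 5 with a mean of at least 1 (the 5 genes left to test); without each library in turn it was 9 to 9. Setting each library to the same median left 2 calls, and 272 of all tested genes in place of 11533 (5599 of 5608 with a mean of at least 1; 11736 to 11752 without a low-MYC library and 11581 to 11600 without a high-MYC library). That setting turned the per-cell differences of *Nfkb2* (-0.18), *Rela* (-0.0017) and *Tnfaip3* (-0.52), since it moved the median of all genes from 1.03 to -0.0039. With no filter on low values, the 10 calls stood beside 14240 of 19769 genes called (14232 higher).

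As a share, 2 of the 10 genes and 274 of all tested genes were called. With no filter the numbers were 0 (6 at an unadjusted p under 0.05) and 80 (72 higher, 8 lower), and without each library in turn they were 0 to 0 (3 to 4 at an unadjusted p under 0.05, limma) and 0 to 61, where the group left with a single library is assumed to vary like the other. At an adjusted p under 0.05, 1384 genes were called. With the replicate number as a block the numbers were 0 and 0 (limma; 5 and 4297 at an unadjusted p under 0.05), and the adjusted p was 0.0137 for *Nfkbiz* and 0.0162 for *Tnfaip3*; libraries with the same number shared only that number (correlation of their deviations across genes 0.081). The share difference of *Rela* was -0.0018 with the same median and -0.048 to 0.074 without each library in turn (-0.00045 without low-MYC replicate 2). Counted over single genes and alternatives, 96 values per cell and 89 of the share kept direction and call, 5 and 12 kept direction but lost the call, and 3 and 3 turned direction.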
